A study of Homo sapiens with 6 samples.

Results

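TRMT112 is a small protein with no catalytic activity of its own that binds a set of methyltransferases and keeps them stable and active. The genes described here are TRMT112 and the 7 methyltransferases that use it as a partner, chosen by gene symbol from the table of ribosome footprint counts: N6AMT1, METTL5, WBSCR22 (current symbol BUD23), ALKBH8, TRMT11, THUMPD2 and THUMPD3. All 8 were found among the 19330 genes of the table, and all 8 passed the filter on low counts that left 9202 genes for testing. In N6AMT1-depleted cells TRMT112 rose, N6AMT1, METTL5, ALKBH8, TRMT11 and THUMPD2 fell, and WBSCR22 and THUMPD3 did not pass the test. Of all tested genes 26.9% passed, and the calls for METTL5 and ALKBH8 did not hold in every alternative fit.

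Ribosome profiles were taken from K562 cells, an established human line of erythroleukemic type derived from chronic myelogenous leukemia. In ribosome profiling (Ribo-Seq) the mRNA stretches covered by ribosomes survive nuclease digestion and are sequenced, so the footprints on a coding sequence (CDS) follow both how much mRNA there is and how heavily it is translated. The sgN6AMT1 group (3 libraries) received a lentiviral CRISPR/Cas9 vector with sgRNA against N6AMT1, and the sgCtrl group (3 libraries) the same vector with sgRNA against olfactory receptor genes, given as OR11A1 and OR2M49 in the labels and as OR11A1 and OR2M4 in the study's methods. Both groups went through 48 h of puromycin selection and were taken 10 days post infection. They were selected pools of cells, not clones, and per the study each library of a group came from its own lentiviral transduction. Which sgRNA each library carried is not given in the sources used here.

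Library totals lay between 1821356 and 2969736 counts, of which the 8 genes took between 1288 and 2077. These numbers limit the precision for the least abundant members. Pairs of libraries within a group differed by more than sampling noise (chi-square per degree of freedom 1.25 to 1.68) but less than pairs across groups (4.89 to 7.04). All 8 K562 markers were present, from TAL1 at 80 counts or more to HBG2 at up to 28916. Of 7 markers of other cell types, MS4A1 and KRT5 were at 0 in every library, CD3E did not exceed 4 counts, ALB did not exceed 10 and COL1A1 lay between 11 and 23. EPCAM (322 to 522 counts) and LYZ (101 to 249 counts) were present, and LYZ was higher in sgN6AMT1 by 0.90 on the log2 scale. The summed level of these genes was 214 to 245 CPM in sgCtrl (CPM is a count divided by its library's total and scaled to a common size) and 287 to 319 CPM in sgN6AMT1, and the part of this difference in the results below was not tested.

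The partners of TRMT112 share a fold that binds S-adenosylmethionine and differ in what they methylate. N6AMT1, also known as HEMK2, acts on protein: it methylates the glutamine of the conserved GGQ motif of the release factor eRF1, and has also been described as a histone H4 methyltransferase. METTL5 and BUD23 each modify a base of the small ribosomal subunit RNA, an adenosine and a guanosine respectively. ALKBH8, TRMT11 and THUMPD3 modify tRNA, ALKBH8 at the wobble uridine and the other two at guanosines in the tRNA body, and THUMPD2 methylates the U6 snRNA of the spliceosome.

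Several of these enzymes place the substrate nitrogen with a short catalytic motif, asparagine or aspartate followed by 2 prolines and an aromatic residue, which is known as the NPPY-type motif. It is shown here because it is a catalytic feature, common to some of the partners, that can be read from the coding sequence. A search for its codons, in frame on the coding strand, found it in 3 of the 8 coding sequences and in 138 of 17495 coding sequences of the annotation (0.789%). The matches are printed 5′ to 3′ in 30-base windows of the CDS, with the 12 bases of the motif in capitals (GRCh38 sequence, GENCODE annotation).
N6AMT1: ctggtgtttAATCCCCCCTATgtagtgact
METTL5: gtaattatgAATCCTCCCTTTgggaccaaa
TRMT11: atcattactGATCCTCCATATggtatcaga
The motif starts at codon 122 of N6AMT1 (window chr21:28879882-28879911, minus strand), at codon 126 of METTL5 (chr2:169821102-169821131, minus strand) and at codon 308 of TRMT11. The TRMT11 window spans a splice junction, with its first base at 126011405 and its last at 126012787 on the plus strand of chromosome 6. The other 5 members had no match, which says only that these codons are not in their reading frames.

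The target of the sgRNA comes first. N6AMT1 (ENST00000460212.1) occupies 28872191 to 28885371 on the minus strand of chromosome 21. The listed transcript has 7 exons, 6 of them coding, and a CDS of 642 bases, and it is annotated as a substrate of nonsense-mediated decay. Its CDS is as long as that of the MANE Select transcript.

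N6AMT1 footprints numbered 25, 24 and 34 in sgCtrl replicates 1 to 3, and 10, 9 and 8 in sgN6AMT1. In CPM scaled by TMM factors, edgeR's adjustment for library composition, these were 12.6, 8.27 and 16.8 in sgCtrl and 4.38, 3.89 and 4.34 in sgN6AMT1. The groups did not overlap. The sgCtrl libraries were far apart from each other, while the sgN6AMT1 libraries lay close together. At counts of 8 to 10 the counting error is larger than this spread, so the closeness does not show a precise level. N6AMT1 fell by 1.51 on the log2 scale (95% interval -2.13 to -0.89, edgeR adjusted p = 6.69e-05), to 0.351 of the sgCtrl level. Of all tested genes, 0.196% had a lower log2 fold change. In a bulk pool, fewer cells with the mRNA and fewer footprints per cell cannot be told apart, and the same holds for each gene below.

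The other tested genes of chromosome 21, taken over the whole chromosome and not by distance from N6AMT1, were also low as a group. The median log2 fold change of these 87 genes was -0.26, with a range of -1.05 to 0.49, and 67 (77.0%) were negative. The edgeR threshold was passed by 37 as lower and 2 as higher. Of all tested genes, 13.9% were called lower and 12.9% higher. None of the 87 fell as far as N6AMT1. The medians of the other chromosomes that carry members lay between -0.06 (chromosome 11) and 0.05 (chromosome 7).

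TRMT112, the shared subunit, was the most abundant member and the sole one to rise. It is a short gene on chromosome 11 (ENST00000544844.5, 64316460 to 64317559, minus strand) with 4 exons and a CDS of 375 bases. Its footprints numbered 376, 542 and 414 in sgCtrl and 545, 582 and 484 in sgN6AMT1, or 189, 187 and 204 CPM against 239, 251 and 263 CPM. Every sgN6AMT1 library was above every sgCtrl library. The mean went from 193 ± 9.43 to 251 ± 11.9 CPM (SD, n = 3 each), a 1.30-fold increase (95% interval 1.18 to 1.43, edgeR adjusted p = 3.58e-06). This was a moderate change among all genes, since 14.4% of those tested had a higher log2 fold change. GENCODE names 7 pseudogene copies of TRMT112, with which short reads could be shared, and ESRRA overlaps its end on the opposite strand outside the CDS.

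**Figure D1:**
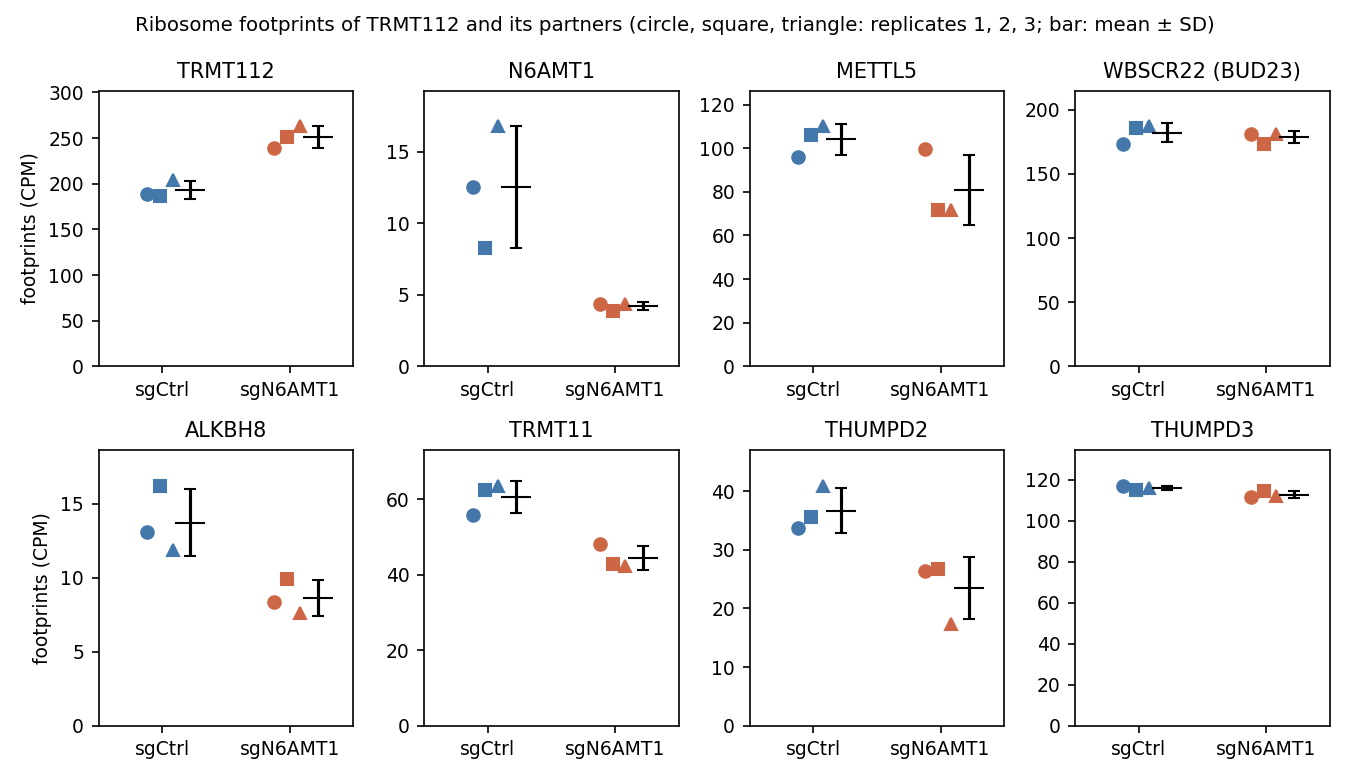
Footprints of TRMT112 and its 7 partners in each library, in CPM (linear axes from 0, each gene with its own range). Colours mark the groups, symbols the replicate numbers, and the black bars the mean ± SD of 3 libraries. TRMT112 lies at 187 to 204 CPM in sgCtrl and 239 to 263 CPM in sgN6AMT1, N6AMT1 falls below its sgCtrl values in all 3 libraries, and WBSCR22 overlaps between the groups.

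The enzymes of the small ribosomal subunit RNA did not move alike. METTL5 (ENST00000410097.5, chromosome 2, 169811814 to 169824874, minus strand) had 95.9, 106 and 110 CPM in sgCtrl and 99.5, 71.7 and 71.7 CPM in sgN6AMT1. The first sgN6AMT1 library therefore lay within the sgCtrl range and the other two well below it. Across the 3 libraries METTL5 fell, with means of 104 ± 7.25 and 81.0 ± 16.1 CPM (SD, n = 3), and its log2 fold change was -0.36 with an SE of 0.10 (edgeR adjusted p = 0.00444). This call did not hold with DESeq2 (log2 fold change -0.37, adjusted p = 0.0655) or without sgN6AMT1 replicate 2 (edgeR, -0.27, adjusted p = 0.0992). The transcript listed for METTL5 has a CDS of 732 bases, longer than the 627 bases of its MANE Select transcript, and 4 pseudogene copies are named for it. SSB overlaps METTL5 on the opposite strand outside the CDS.

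WBSCR22, the BUD23 gene on chromosome 7 (73683597 to 73698212, plus strand), had 173, 185 and 187 CPM in sgCtrl and 181, 173 and 181 CPM in sgN6AMT1. The groups overlapped. Its log2 fold change was -0.03 with a 95% interval of -0.17 to 0.11 (edgeR adjusted p = 0.802). The transcript listed for it (ENST00000423497.5) was not matched in the annotation, and its position and CDS length were taken from the MANE Select transcript.

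Among the tRNA enzymes, TRMT11 and ALKBH8 fell and THUMPD3 did not pass the test. TRMT11 (ENST00000334379.9, chromosome 6, 125986540 to 126039276, plus strand) had 55.8, 62.4 and 63.6 CPM in sgCtrl and 48.2, 42.8 and 42.3 CPM in sgN6AMT1. All sgN6AMT1 values were below all sgCtrl values. Its log2 fold change was -0.45 (SE 0.12, edgeR adjusted p = 0.00230), from 60.6 ± 4.22 to 44.4 ± 3.27 CPM (SD, n = 3 each).

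THUMPD3 (ENST00000515662.6, chromosome 3, 9363098 to 9384870, plus strand) makes the same kind of methylguanosine as TRMT11 at another tRNA position. It had 117, 115 and 116 CPM in sgCtrl and 111, 114 and 112 CPM in sgN6AMT1. These ranges did not overlap, but the gap was small: the log2 fold change was -0.04 with a 95% interval of -0.21 to 0.13 (edgeR adjusted p = 0.767). The antisense lncRNA THUMPD3-AS1 runs across its CDS on the other strand, and whether the counting used strand is not stated in the sources used here.

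ALKBH8 (ENST00000417449.6, chromosome 11, 107504658 to 107565742, minus strand) was, beside N6AMT1, the member with the fewest footprints. Its counts were 26, 47 and 24 in sgCtrl and 19, 23 and 14 in sgN6AMT1, or 13.1, 16.2 and 11.8 CPM against 8.33, 9.94 and 7.60 CPM. All sgN6AMT1 values were below all sgCtrl values. It fell by 0.68 on the log2 scale with a wide 95% interval of -1.17 to -0.19 (edgeR adjusted p = 0.0304). The adjusted p was 0.243 with DESeq2, and with edgeR it was 0.215 without sgCtrl replicate 2, 0.0800 without sgN6AMT1 replicate 1 and 0.0903 without sgN6AMT1 replicate 3.

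THUMPD2 (ENST00000505747.5, chromosome 2, 39736061 to 39779258, minus strand), the enzyme of U6 snRNA, had 33.7, 35.5 and 40.9 CPM in sgCtrl and 26.3, 26.8 and 17.4 CPM in sgN6AMT1. The groups did not overlap, and the third sgN6AMT1 library was the lowest of the 6. The log2 fold change of THUMPD2 was -0.61 with an SE of 0.16 (edgeR adjusted p = 0.00122).

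**Figure D2:**
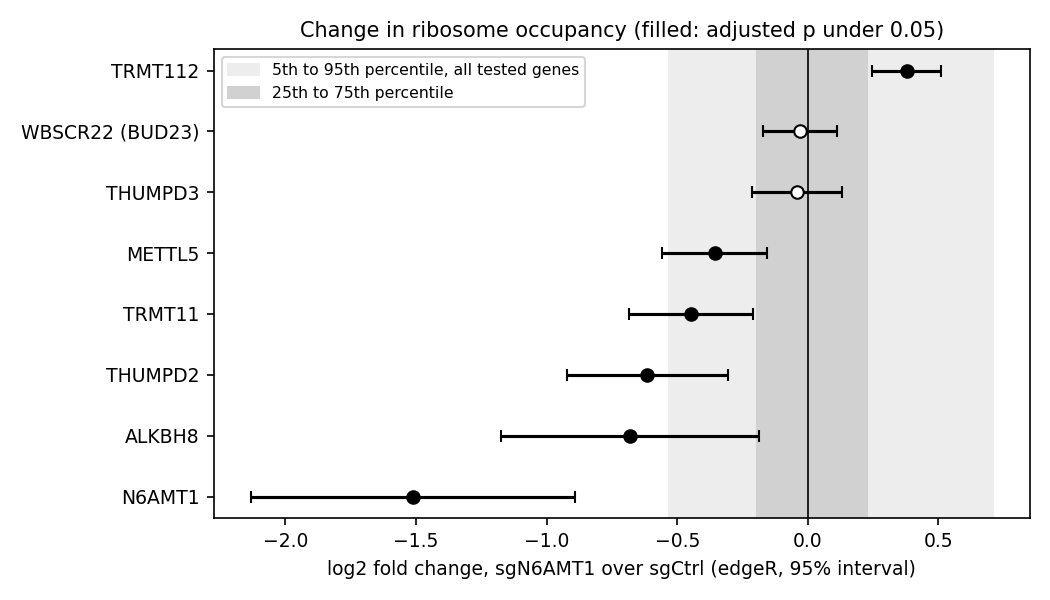
Log2 fold change of ribosome occupancy of each member, sgN6AMT1 over sgCtrl, with edgeR's 95% interval. Filled points passed an adjusted p of 0.05, and the grey bands hold the middle of all 9202 tested genes (-0.19 to 0.23 from the 25th to the 75th percentile, -0.53 to 0.71 from the 5th to the 95th). N6AMT1 lies farthest out at -1.51, TRMT112 lies at 0.38, and the intervals of WBSCR22 and THUMPD3 include 0, with the sign of both turned when libraries are scaled by their totals.

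In all, 6 of the 8 members passed the edgeR threshold (adjusted p under 0.05), where 26.9% of all tested genes did. The 5 that fell stand against 13.9% of genes called lower, and the 1 that rose against 12.9% called higher. With DESeq2, which called 12.4% of the 10716 genes it tested, 4 members passed: TRMT112, N6AMT1, TRMT11 and THUMPD2. The groups did not overlap for 6 members, 5 of them lower and TRMT112 higher, against 37.5% of all tested genes. The median log2 fold change was -0.40 over the 8 members and -0.45 over the 7 partners, against 0.01 over all tested genes. One of the 5 members that fell is the target of the sgRNA itself.

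Levels of different genes were compared as density, in CPM per kilobase of CDS. In sgCtrl, TRMT112 led with 515 ± 25.1, followed by WBSCR22 with 216 ± 8.85, METTL5 with 142 ± 9.90 and THUMPD3 with 76.3 ± 0.627 (SD, n = 3). The lower end was formed by TRMT11 with 43.6 ± 3.04, THUMPD2 with 24.3 ± 2.5, N6AMT1 with 19.5 ± 6.61 and ALKBH8 with 6.88 ± 1.13 (SD, n = 3). Of the neighbours in this order, THUMPD2 and N6AMT1 overlapped in their library values and the others did not. The order was the same in sgN6AMT1, where the means were 669, 212, 111, 74.0, 32.0, 15.6, 6.55 and 4.33 and no neighbours overlapped. N6AMT1 thus stayed next to last, at 6.55 ± 0.428, an SD that understates the counting error of so few footprints.

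Because all 7 enzymes use one subunit, the density of TRMT112 was set against the summed density of its partners. The summed density of the partners was about as large as that of TRMT112 in sgCtrl (528 ± 25.4, SD, n = 3) and lower in sgN6AMT1 (455 ± 27.9, SD, n = 3). The ratio of TRMT112 to its partners was 1.00, 0.940 and 0.984 in sgCtrl and 1.31, 1.53 and 1.60 in sgN6AMT1. All sgN6AMT1 ratios were higher than all sgCtrl ratios, and the means of 0.976 ± 0.033 and 1.48 ± 0.15 differed 1.51-fold. N6AMT1 itself took 3.68% of the partners' summed density in sgCtrl and 1.44% in sgN6AMT1. Leaving it out could therefore change the ratio only a little, and without it the ratio differed 1.48-fold. METTL5 and WBSCR22 together made up 67.7% of the partners' density in sgCtrl and 70.8% in sgN6AMT1. The ratio describes footprints and not protein, and no test is given for it because it is a score over members chosen with results of these data known.

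**Figure D3:**
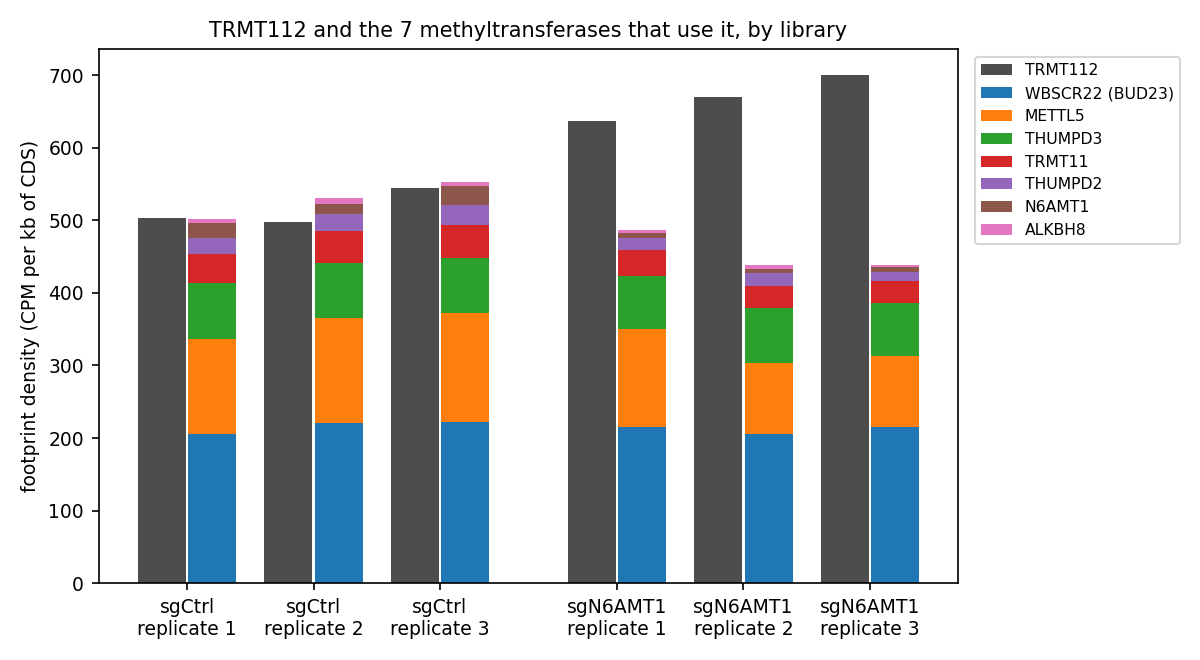
Footprint density of TRMT112 (grey bars) beside the stacked densities of its 7 partners (coloured bars) in each of the 6 libraries, in CPM per kilobase of CDS on a linear axis from 0. The bars of a library are about equal in sgCtrl (ratio 0.940 to 1.00), and the TRMT112 bar is the higher in each sgN6AMT1 library (ratio 1.31 to 1.60).

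The genes whose profile over the 6 libraries was most like that of TRMT112 were PRELID1, HBA1 and TSPAN3, with a root mean square difference of centred log2 CPM of 0.025, 0.029 and 0.031 where the median gene had 0.256. PRELID1, a mitochondrial lipid carrier, rose by 0.38 on the log2 scale (edgeR adjusted p = 0.000883). HBA1, an alpha globin gene that has a near-identical copy and so an uncertain count, had a log2 fold change of 0.37. For N6AMT1 the nearest were DLK1, PKLR and TIMMDC1 (0.250, 0.299 and 0.309, median gene 0.775), with log2 fold changes of -1.13, -1.20 and -1.56. N6AMT1 had 8 to 34 footprints per library, so its profile carries a large counting error.

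The substrate of N6AMT1 and related enzymes were examined as lists. ETF1, which encodes eRF1, had 313, 330 and 328 CPM in sgCtrl and 331, 307 and 291 CPM in sgN6AMT1, overlapping between the groups (log2 fold change -0.06, 95% interval -0.18 to 0.06, edgeR adjusted p = 0.495). GSPT1, which encodes its partner eRF3a, had a log2 fold change of -0.16 (edgeR adjusted p = 0.0276), and the call was lost in 5 of the 13 alternatives. The adjusted p was 0.101 with DESeq2, and with edgeR it was 0.173 with scaling by library totals, 0.118 without sgCtrl replicate 2, 0.0936 without sgCtrl replicate 3 and 0.144 without sgN6AMT1 replicate 3. It was the single gene of the 4 in this list to pass, and the list's median of -0.03 became 0.02 when libraries were scaled by their totals.

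Modification of the wobble uridine by ALKBH8 follows on the Elongator complex. The wobble uridine list holds the Elongator subunits and also KTI12, DPH3, CTU1, CTU2, URM1 and MOCS3, and 1 of its 12 genes passed. ELP2, a scaffold subunit of Elongator, fell by 0.50 on the log2 scale, from 219 ± 10.2 to 154 ± 8.51 CPM (SD, n = 3 each, edgeR adjusted p = 1.29e-08). The median of the list was -0.03, and it was 0.02 when libraries were scaled by their totals.

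Of 25 tested tRNA methyltransferase genes that do not use TRMT112, 8 fell and 0 rose, and their median log2 fold change was -0.25. The largest decreases were those of TRMT10A (-0.86, edgeR adjusted p = 0.0120), a guanosine methyltransferase, of TRMT13 (-0.62, adjusted p = 0.00373), and of WDR4 (-0.58, adjusted p = 7.63e-05), the partner subunit of METTL1. With DESeq2, 3 of them passed, without TRMT10A (adjusted p = 0.142) and TRMT13 (adjusted p = 0.0760). TRMT10A also lost its call with edgeR when sgN6AMT1 replicate 3 was left out (-0.67, adjusted p = 0.0822). TRMT112 rose and WDR4, also a non-catalytic subunit of a tRNA methyltransferase, fell. This contrast is not particular to WDR4, since 8 of the 25 genes were called lower and 0 higher. Of all tested genes, 13.9% were called lower and 12.9% higher. A negative log2 fold change, called or not, was seen in 20 of the 25, and the median of all tested genes was 0.01. The list was not split by chromosome. The lower values of chromosome 21 genes, given above, were therefore not set apart for WDR4 or the others.

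Of 14 other enzymes and adaptors listed under rRNA and snRNA modification, 6 fell and 0 rose, with a median of -0.16. They included NAT10, the RNA acetyltransferase (-0.40, edgeR adjusted p = 9.25e-07), its tRNA adaptor THUMPD1 (-0.53, adjusted p = 4.02e-05) and DIMT1, which dimethylates adenosines of the small subunit RNA (-0.35, adjusted p = 0.00354). THUMPD1 shares the THUMP domain with TRMT11, THUMPD2 and THUMPD3. It was listed here with NAT10 although it is a tRNA adaptor, and it had the lowest log2 fold change of the list. The counts of this list are therefore not of rRNA and snRNA factors alone.

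Of 10 tested protein methyltransferases that act outside histones, 1 rose and 1 fell, with a median of -0.29. The gene that rose, HEMK1, is the mitochondrial relative of N6AMT1 and methylates mitochondrial release factors. Its footprints numbered 10, 18 and 10 in sgCtrl and 22, 25 and 18 in sgN6AMT1, or 5.02, 6.21 and 4.93 CPM against 9.64, 10.8 and 9.77 CPM. The groups did not overlap, and the log2 fold change was 0.87 with a 95% interval of 0.29 to 1.46 (edgeR adjusted p = 0.0187). The adjusted p was 0.190 with DESeq2, and with edgeR it was 0.0530 without sgCtrl replicate 1, 0.0580 without sgCtrl replicate 3 and 0.0817 without sgN6AMT1 replicate 2. METTL13, which methylates the elongation factor eEF1A, fell by 0.36 on the log2 scale (edgeR adjusted p = 0.00322), and without sgCtrl replicate 1 the value was -0.26 (adjusted p = 0.0620).

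**Figure D4:**
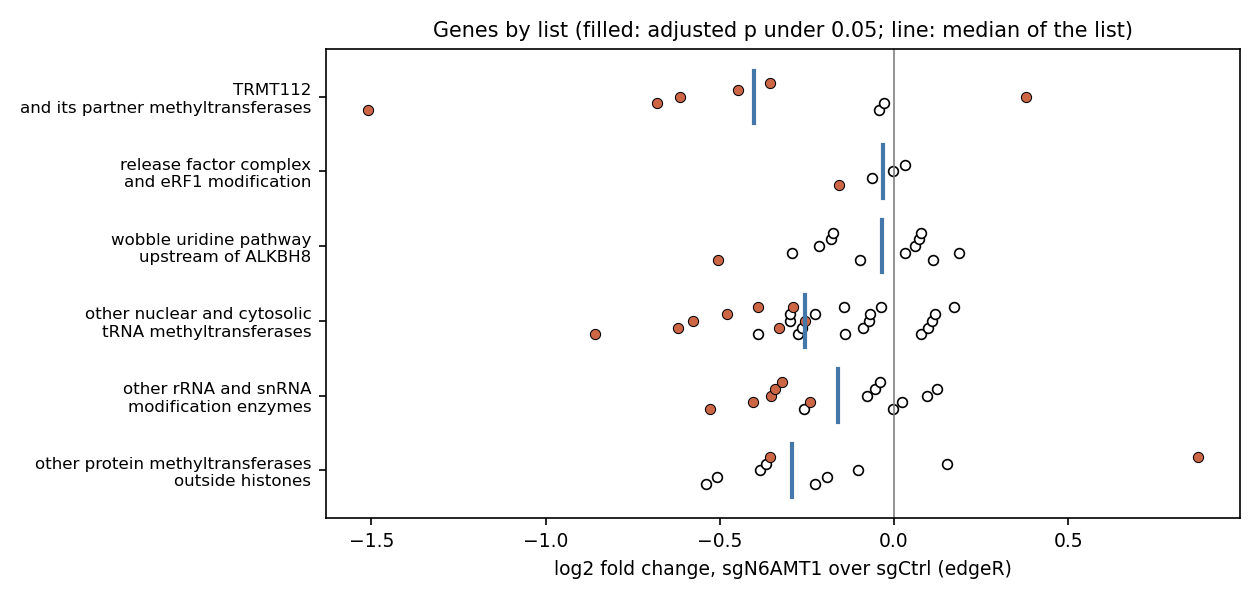
Log2 fold change of each tested gene, sgN6AMT1 over sgCtrl, by list. Filled points passed edgeR's adjusted p of 0.05, blue lines mark the median of each list, and the vertical spread within a list only separates the points. The medians are -0.40 for TRMT112 and its partners, -0.03 for the release factor and wobble uridine lists (both 0.02 with scaling by library totals), -0.25 for the other tRNA methyltransferases, -0.16 for the rRNA and snRNA enzymes and -0.29 for the protein methyltransferases. HEMK1 is the filled point farthest to the right.

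In the lists of tRNA, rRNA and snRNA, and protein enzymes without TRMT112, the share of genes called was 32.0%, 42.9% and 20.0%. It was 25.0% in the release factor list and 8.33% in the wobble uridine list. These stand against 6 of the 8 members and 26.9% of all tested genes. The partners were not the sole RNA-modifying enzymes with lower footprints in sgN6AMT1, and whether they differ from the other enzymes was not tested.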

How the data were processed

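Per the labels, reads were trimmed with cutadapt and mapped with Bowtie2. Per the study's methods, footprints kept by length were mapped to canonical Ensembl transcripts on GRCh38 after removal of rRNA and tRNA. The authors deposited raw counts per gene, not normalized. Whether a count is the sum of P-sites in the CDS or of reads overlapping the gene is not given in the sources used here. Counts were tested with edgeR 4.0.16 (TMM, filterByExpr with a minimum count of 10, robust quasi-likelihood F test, Benjamini-Hochberg over 9202 genes), 3 sgCtrl against 3 sgN6AMT1 libraries. The 10128 genes below the filter held 0.465% of counts. CDS lengths came from GENCODE, which matched 91.5% of the table by transcript. Profiles were compared on log2(CPM + 0.5) for genes of at least 10 CPM.

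The members, lists and tests were chosen with earlier results of these data known. Named genes were the members, ETF1, GSPT1, up to 3 genes called in each direction per other list, and the 3 nearest profiles of TRMT112 and N6AMT1. The planned exact permutation test of the ratio is not quoted. Alternatives were DESeq2 1.42.0, limma-voom (limma 3.58.1), other scalings, no filter, a replicate block and each library left out. The fits were also run on simulated data, with the outcome not reported here. RNA-Seq was not used here, and a further cell type marker is not reported here.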

Additional observations from a re-analysis of the deposited data

How the results depend on the processing

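Over 13 alternatives, the calls for TRMT112 (log2 fold change 0.34 to 0.43, adjusted p 1.53e-07 to 0.000449), N6AMT1 (-1.80 to -1.25, adjusted p 1.13e-05 to 0.00674), TRMT11 (-0.51 to -0.39, highest adjusted p 0.0487) and THUMPD2 (-0.72 to -0.47, highest adjusted p 0.0405) held in every one. DESeq2 called 1329 genes where edgeR called 2473, and 3 members as lower in place of 5, since METTL5 (-0.37) and ALKBH8 (-0.68) were lost. Scaling by library totals moved the median of all genes by 0.05 on the log2 scale. It turned the sign of the uncalled values of WBSCR22 (0.0246) and THUMPD3 (0.0123) and of the medians of the wobble uridine list (0.0213) and the release factor list (0.023), and it moved the median of the rRNA and snRNA list to -0.11. With each library left out in turn, 1859 to 2322 genes and 4 to 5 lower members were called. METTL5 then ranged from -0.54 to -0.27, ALKBH8 from -0.80 to -0.52, and the ratio of TRMT112 to its partners from 1.45-fold to 1.60-fold. The list medians ranged from -0.53 to -0.34 for the 8 members, with the lowest value without sgN6AMT1 replicate 1. They ranged from -0.0885 (without sgN6AMT1 replicate 1) to -0.0388 for the release factor list, whose value over all libraries was -0.0319. They ranged from -0.089 to -0.0226 for the wobble uridine list, -0.31 to -0.19 for the other tRNA methyltransferases, -0.199 to -0.155 for the rRNA and snRNA enzymes and -0.38 to -0.24 for the protein methyltransferases. Causes of these shifts were not tested.

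Libraries with the same replicate number did not deviate together (correlations of -0.19, 0.01 and -0.01 over 3661 genes), so the numbers were not taken as pairs. With the replicate number as a block, 2390 genes and the same count of 6 members were called, with TRMT112 at 0.38 and N6AMT1 at -1.52. Depth limits N6AMT1, ALKBH8, HEMK1 and TRMT10A, among others, each with fewer than 50 footprints in every library.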
